A study of Mus musculus with 4 samples.

Results

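The transcription factor p53 (gene Trp53) is activated by DNA damage and other stress, and it acts by switching on target genes that halt the cell cycle, start cell death or limit p53 itself. The genes examined were 10 such targets, Cdkn1a, Ccng1, Phlda3, Mdm2, Trp53inp1, Bbc3, Bax, Fas, Eda2r and Gdf15, taken by symbol from the 44788 genes of the count table. All 10 were found, and each had at least 50 counts in at least 1 library. In the colon, p53 guards the epithelium against damaged DNA, and its loss is a frequent step of colorectal tumours in people. Cdkn1a is also known to be made by differentiating cells of the upper crypt without damage, and Gdf15 is also a target of the integrated stress response.

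RNA of colon tissue from C57BL/6 mice gave 4 libraries, with 1 library per group of genotype and treatment. The genotypes were wild type (WT) and Card9-/-, a deletion of an adaptor protein of myeloid cells, and the label names no promoter or Cre driver. Mice were untreated, with the label day 0, or were collected on day 100 of AOM/DSS, which gives mice colon tumours on a background of colitis. It joins the DNA-alkylating mutagen azoxymethane (AOM), given once at 10 mg/kg, with 3 cycles of 7 days of 2% dextran sulfate sodium (DSS) in the drinking water, the first one 5 days after AOM. Treatment and day of collection therefore cannot be told apart. Sex, age and whether a library held 1 mouse or a pool were not given in the sources used here. The deletion went against its label: Card9 had 44 and 116 counts in the WT libraries, untreated and AOM/DSS, and 69 and 245 counts in the libraries labelled knockout. On the CPM scale, which divides counts by the TMM-scaled library total, the ratio of labelled knockout to WT was 1.82 for Card9 when untreated (95% counting interval 1.23 to 2.72) and 1.45 after AOM/DSS (1.16 to 1.83). Genotype below therefore means the label only.

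Library totals ran from 23022885 to 27706567 counts. In cell type markers, 1 library differed most from the rest, that of AOM/DSS labelled knockout. Summed over 8 markers of mature colonocytes it held 462 CPM against 4260 to 11100 CPM in the other 3 libraries, over 6 of goblet cells 1680 against 13800 to 16800, and over 6 of smooth muscle 1160 against 6100 to 8210. Markers of cycling cells were at 943 CPM against 321 to 546, of macrophages at 421 against 127 to 182, and of T and NK cells at 107 against 33.9 to 47.7. Paneth cell markers, among them Lyz1, defensins and Mmp7, summed to 2600 CPM against 16.8 to 32.6, with Defa17 and Defa24 at 0 counts in both untreated libraries and Defa17 at 0 in WT AOM/DSS. B and plasma cell markers were at 181 CPM against 345 to 586, fat cell markers at 8.78 against 25.1 to 230.0, and the 6 pan-epithelial markers, among them Epcam and Krt8, at 8270 against 9880 to 12000. The neutrophil markers of this library summed to 234 CPM, with 3.05 and 59.5 in the untreated libraries (WT and labelled knockout) and 370 in WT AOM/DSS. Ly6g made up most of the 59.5 CPM, at 54.7 CPM. Sums can rest on 1 abundant gene, and some single markers, such as Adipoq and Cdh1, lay inside the range of the other libraries. Some went against their sum: the pan-epithelial Krt18 was highest in this library, at 780 CPM against 315 to 360. The goblet marker Clca1 was also highest there, at 20.8 CPM against 10.4 to 14.4. Apart from the defensins just named, every marker had a count in every library. The part of this makeup in the differences below was not tested, and fewer cells of a type and less RNA per cell cannot be told apart in bulk tissue.

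p53 binds DNA as a tetramer at a site made of a pair of 10-base half-sites. The RefSeq promoter windows of the same build (GRCm38.p6), from 250 bases before a transcription start to 50 after it, were searched for the p53 half-site consensus with no mismatch, and for 2 abutting half-sites with at most 1 mismatch, called a full site here. The mismatch could not fall on the C or the G that the consensus fixes in each half-site. The consensus reads the same on both strands, so both were covered. Of 32851 windows of 27025 genes, 8.36% held a half-site and 0.067% a full site. A window was found for 9 of the 10 target genes (13 windows), with none for Trp53inp1. Half-sites lay in 1 window each of 4 genes, Cdkn1a, Mdm2, Ccng1 and Bax, and full sites in 1 window each of 2, Cdkn1a and Ccng1. The 250 bases before the start are shown for these 2 genes, with the full site in capitals, and for Phlda3 and Eda2r, which had the largest differences between the AOM/DSS libraries and no half-site in the window. Mdm2 and Bax are shown around the half-site, in capitals.
Cdkn1a, upstream start, chr17:29090729-29090978, plus strand: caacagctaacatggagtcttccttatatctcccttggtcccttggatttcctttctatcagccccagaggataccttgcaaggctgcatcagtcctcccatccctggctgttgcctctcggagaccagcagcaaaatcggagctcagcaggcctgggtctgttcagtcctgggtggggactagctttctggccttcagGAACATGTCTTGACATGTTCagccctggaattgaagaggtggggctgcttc
Ccng1, chr11:40755287-40755536, minus strand: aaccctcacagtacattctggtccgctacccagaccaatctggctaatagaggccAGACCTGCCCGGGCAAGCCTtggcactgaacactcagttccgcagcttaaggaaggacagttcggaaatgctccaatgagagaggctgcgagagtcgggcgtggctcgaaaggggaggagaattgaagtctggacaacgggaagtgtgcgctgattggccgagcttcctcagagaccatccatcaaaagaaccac
Phlda3, chr1:135765835-135766084, plus strand: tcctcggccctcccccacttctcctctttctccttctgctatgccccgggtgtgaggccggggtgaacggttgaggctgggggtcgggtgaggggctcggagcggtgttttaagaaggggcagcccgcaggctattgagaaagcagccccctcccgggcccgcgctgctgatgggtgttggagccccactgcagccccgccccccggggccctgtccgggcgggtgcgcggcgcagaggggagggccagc
Eda2r, chrX:97377210-97377459, minus strand: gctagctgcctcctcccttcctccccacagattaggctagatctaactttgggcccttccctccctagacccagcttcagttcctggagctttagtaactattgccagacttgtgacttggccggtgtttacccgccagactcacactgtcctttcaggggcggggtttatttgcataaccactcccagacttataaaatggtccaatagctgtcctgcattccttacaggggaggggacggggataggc
Mdm2, chr10:117710910-117710969, minus strand: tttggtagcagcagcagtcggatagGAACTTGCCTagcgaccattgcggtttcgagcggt
Bax, chr7:45467065-45467124, minus strand: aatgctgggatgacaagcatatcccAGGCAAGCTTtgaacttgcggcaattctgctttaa
The Cdkn1a site, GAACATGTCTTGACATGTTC, began 51 bases before the upstream of its 2 RefSeq starts (chr17:29090928-29090947), and the window of the downstream start held no half-site. The Ccng1 site, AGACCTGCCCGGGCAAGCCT, began 195 bases before the start (chr11:40755462-40755481). The half-sites of Mdm2 (GAACTTGCCT) and Bax (AGGCAAGCTT) began 186 and 201 bases before the start. These are matches of letters, and no binding was measured. Introns, which hold the best-known p53 sites of Mdm2, lie outside the windows. Starts differ slightly between annotations, and the last bases of the Cdkn1a, Ccng1 and Eda2r stretches fall in the first exon in GENCODE.

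The 10 genes did not move in 1 direction in any pair of libraries. Phlda3 and Eda2r were highest in the AOM/DSS library labelled knockout, where Cdkn1a and Bbc3 were lowest, and Gdf15 was highest in the untreated library labelled knockout. A gene passed the size rule with a minimum of 50 counts in the higher of both libraries and a difference of at least 2-fold on the log2(CPM + 1) scale. In WT, AOM/DSS over untreated, 0 of the 10 genes were higher by this rule and 1 was lower (Eda2r), while 4.08% of all 15356 genes tested were higher and 3.88% lower. In the libraries labelled knockout, AOM/DSS over untreated, 2 were higher (Phlda3, Eda2r) and 2 lower (Cdkn1a, Bbc3), against 14.1% and 15.9% of 15900 genes. Between the untreated libraries, labelled knockout over WT, 1 was higher (Gdf15) and 0 lower, against 4.46% and 3.37% of 15352 genes. Between the AOM/DSS libraries, labelled knockout over WT, 2 were higher (Phlda3, Eda2r) and 0 lower, against 11.9% and 12.4% of 15779 genes. Over 10 genes, these counts are near the background share in every pair. Scaled by library totals in place of TMM, 64.1% of all genes past the rule were higher after AOM/DSS under the label and 64.2% between the AOM/DSS libraries, against 47.0% and 48.9%. The median log2 ratio of the 10 genes in the same order of pairs was -0.10, 0.24, 0.25 and 0.33, beside 0.02, 0.03, -0.01 and 0.03 over all genes tested. Since each group is a single library, no p-value was computed for a pair, and each interval below covers counting error only. Pairs that share a library are not independent.

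**Figure D1:**
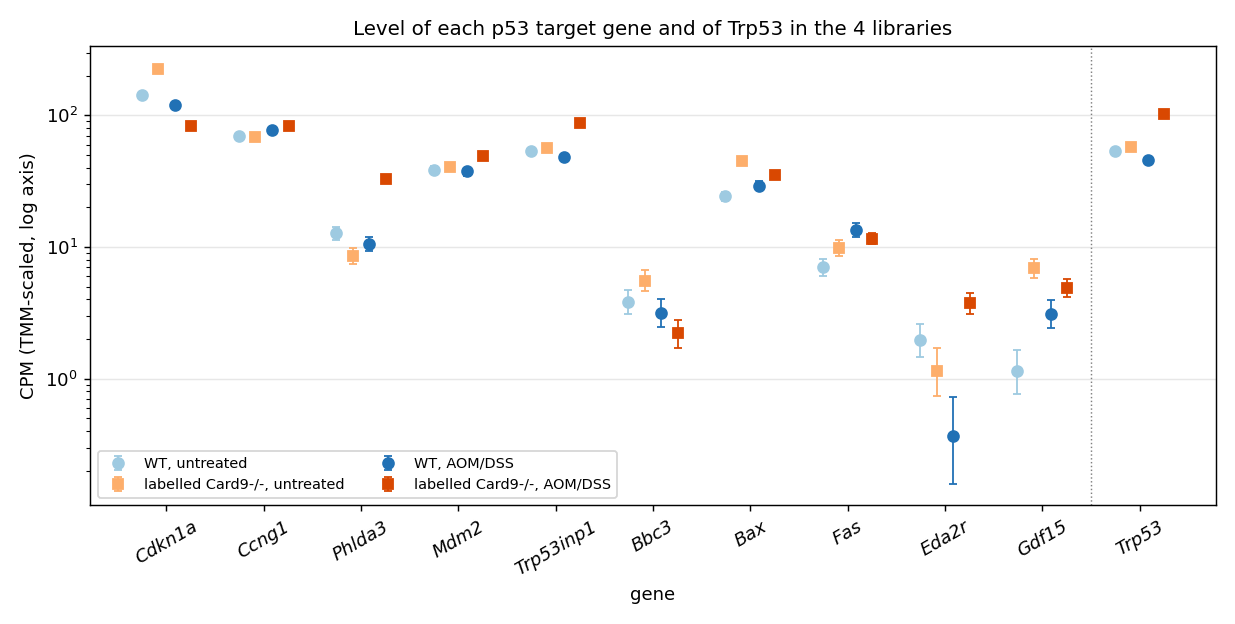
Level of the 10 target genes and of Trp53 in each library, as TMM-scaled CPM on a log axis; bars are 95% Poisson intervals of the counts. The AOM/DSS library labelled knockout (dark orange) is highest for Mdm2, Trp53inp1, Ccng1, Phlda3 and Eda2r and lowest for Cdkn1a and Bbc3.

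Cdkn1a (ENSMUSG00000023067.14, chr17:29090976-29100727) encodes p21, the inhibitor of cyclin-dependent kinases through which p53 halts the cell cycle. It stood at 144 CPM in untreated WT, 227 in the untreated library labelled knockout, 121 in WT AOM/DSS and 82.5 in AOM/DSS labelled knockout, from 2615 to 4941 counts. It was therefore highest untreated and lowest after AOM/DSS within the label, and per kilobase of exon its level of 23.2 to 64.0 CPM was the highest of the 10 in every library but the last, where Ccng1 was at 23.7. AOM/DSS was 1.19-fold lower than untreated in WT (interval 1.14 to 1.26) and 2.76-fold lower in the libraries labelled knockout (2.63 to 2.89). The library labelled knockout was 1.58-fold higher than WT untreated (1.51 to 1.65) and 1.46-fold lower than WT after AOM/DSS (1.39 to 1.54). Beside it, the mature colonocyte markers summed to 462 CPM in the AOM/DSS library labelled knockout, the lowest for both. Between the untreated libraries the list did not move as one, with 3 of the 8 markers at least 2-fold higher under the label, 3 lower and a median log2 ratio of -0.24. Car1 carried the lower sum there (7650 CPM in WT, 857 under the label), while Car4 was at 209 and 1100 CPM and was higher where Cdkn1a was. Cdkn1a made up 40.3% and 48.4% of the summed CPM of the 10 genes in the untreated libraries (WT and labelled knockout), and 35.1% and 21.0% in the AOM/DSS ones. That sum was 358, 470, 344 and 393 CPM in the order of the first values of this gene.

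Ccng1 (chr11:40748552-40755311), cyclin G1, recruits a phosphatase that acts on Mdm2. It was the steadiest of the 10, at 69.9 CPM in untreated WT, 69.0 in untreated labelled knockout, 77.1 in WT AOM/DSS and 83.1 in AOM/DSS labelled knockout. Its AOM/DSS ratio was 1.10 in WT (1.03 to 1.18) and 1.21 under the label (1.13 to 1.28), both well under 2-fold. The untreated pair did not differ beyond counting error (ratio 0.987, 0.921 to 1.06). Ccng1 had a full site in its promoter window, as Cdkn1a did before its upstream start, and did not share the lower level of Cdkn1a after AOM/DSS. The part of either site in these levels was not tested.

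Phlda3 (chr1:135766119-135769136) encodes a small lipid-binding protein that holds back the survival kinase AKT. Its counts were 322 in untreated WT, 186 in untreated labelled knockout, 231 in WT AOM/DSS and 1038 in AOM/DSS labelled knockout. In CPM these were 12.8, 8.56, 10.6 and 32.8, so 1 library stood above the other 3. Under the label, AOM/DSS was 3.83-fold above untreated (3.27 to 4.50), and in WT it was 1.21-fold below (1.02 to 1.43). After AOM/DSS it was 3.09-fold higher under the label than in WT (2.68 to 3.58), and untreated it was 1.49-fold lower (1.24 to 1.80). Across the alternative scalings and pseudocounts, its log2 ratio between the AOM/DSS libraries ran from 1.28 to 1.80.

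Mdm2 (chr10:117688875-117710758) encodes the ubiquitin ligase that marks p53 for breakdown, and as a p53 target it closes a feedback loop. It stood at 38.7 CPM in untreated WT, 40.7 in untreated labelled knockout, 37.5 in WT AOM/DSS and 49.5 in AOM/DSS labelled knockout. Neither the untreated pair nor the WT pair differed beyond counting error, with ratios of 1.05 (0.958 to 1.15) for the untreated pair and 0.967 (0.881 to 1.06) for AOM/DSS in WT. The AOM/DSS library labelled knockout was 1.22-fold above its untreated counterpart (1.12 to 1.32) and 1.32-fold above WT AOM/DSS (1.21 to 1.44). Trp53inp1 (chr4:11156431-11174379), a nuclear protein that promotes p53 activity and autophagy, had the same order at 53.6, 56.2, 48.2 and 87.6 CPM. It was 1.56-fold higher after AOM/DSS under the label (1.46 to 1.67), while in WT its ratio was 0.9 (0.829 to 0.976). Between the AOM/DSS libraries it was 1.82-fold higher under the label (1.69 to 1.95), a log2 ratio under 1 that reached 1.12 when libraries were scaled by their totals.

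The cell death genes divided. Bbc3 (chr7:16308393-16318205), which encodes PUMA, a BH3-only protein that frees BAX and BAK, was low at 97, 121, 69 and 70 counts (untreated WT and labelled knockout, then AOM/DSS WT and labelled knockout). In CPM these were 3.85, 5.57, 3.16 and 2.21, an order like that of Cdkn1a. It was 2.52-fold lower after AOM/DSS under the label (1.86 to 3.43), and its WT ratio of 0.822 could not be told from 1 (0.595 to 1.13). Its log2 ratio of -1.03 under the label just passed the size rule, which it no longer did with DESeq2 size factors or library totals. Bax (chr7:45461697-45466898), which opens the outer mitochondrial membrane, stood at 24.4, 44.9, 29.3 and 35.2 CPM in the same order. Untreated labelled knockout was 1.84-fold above untreated WT (1.66 to 2.04) and the highest of the 4, as for Bbc3. After AOM/DSS it was 1.20-fold higher in WT (1.07 to 1.34) and 1.28-fold lower under the label (1.17 to 1.39). The second of these was lost with library totals, at a ratio of 0.963 (0.883 to 1.05).

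Fas (chr19:34290666-34327772), the death receptor for Fas ligand, was the only one of the 10 that was highest in WT AOM/DSS. It stood at 7.06 CPM in untreated WT, 9.85 in untreated labelled knockout, 13.5 in WT AOM/DSS and 11.6 in AOM/DSS labelled knockout, from 178 to 368 counts. AOM/DSS was 1.92-fold higher than untreated in WT (1.58 to 2.32) and had a ratio of 1.18 under the label (0.994 to 1.40). The AOM/DSS libraries did not differ beyond counting error (0.859, 0.735 to 1.00). Neutrophil markers, whose cells carry Fas, summed to 370 CPM after AOM/DSS in WT and to 234 CPM under the label. S100a9 led that gap (183 and 67.3 CPM), Mmp8 (12.5 and 18.7 CPM) went the other way as did Ly6g, and the part of those cells in the level of Fas was not tested.

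Eda2r (chrX:97333840-97377216) encodes a receptor of the tumour necrosis factor family that binds ectodysplasin A2. Its counts were 50 in untreated WT, 25 in untreated labelled knockout, 8 in WT AOM/DSS and 119 in AOM/DSS labelled knockout, or 1.98, 1.15, 0.367 and 3.76 CPM. It was thus the scarcest of the 10 in every library per kilobase of exon (0.337, 0.195, 0.0623 and 0.638 CPM). In WT it was 5.41-fold lower after AOM/DSS (2.54 to 13.2), and under the label 3.26-fold higher (2.11 to 5.25). The AOM/DSS libraries differed 10.2-fold (5.03 to 24.3), the widest ratio and the widest interval among the 10, since WT AOM/DSS gave only 8 counts. Its log2 ratio in that pair ran from 0.71 to 2.30 across the alternatives, and in both pairs where it was higher it failed the size rule with a pseudocount of 5 CPM or a minimum of 200 counts. The WT difference just met the count minimum, with 50 counts in untreated WT, and did not meet it when all libraries were thinned to the smallest total.

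Gdf15 (chr8:70629393-70632456) encodes a secreted stress cytokine that lowers appetite through a hindbrain receptor. It had 29 counts in untreated WT, 150 in untreated labelled knockout, 68 in WT AOM/DSS and 155 in AOM/DSS labelled knockout, or 1.15, 6.90, 3.12 and 4.89 CPM. Untreated WT was below the other 3 libraries. The untreated library labelled knockout was 6.00-fold above untreated WT (4.01 to 9.27), with a log2 ratio of 1.88, the only target gene past the size rule in that pair, and of 0.95 with a pseudocount of 5 CPM. AOM/DSS was 2.71-fold higher in WT (1.73 to 4.34) and 1.41-fold lower under the label (1.12 to 1.78). The WT log2 ratio of 0.94 missed the rule and reached 1.13 across the alternatives, and the lower level under the label was lost with library totals, at a ratio of 0.870 (0.691 to 1.10). Its receptor gene, Gfral, had 0 counts in every library.

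**Figure D2:**
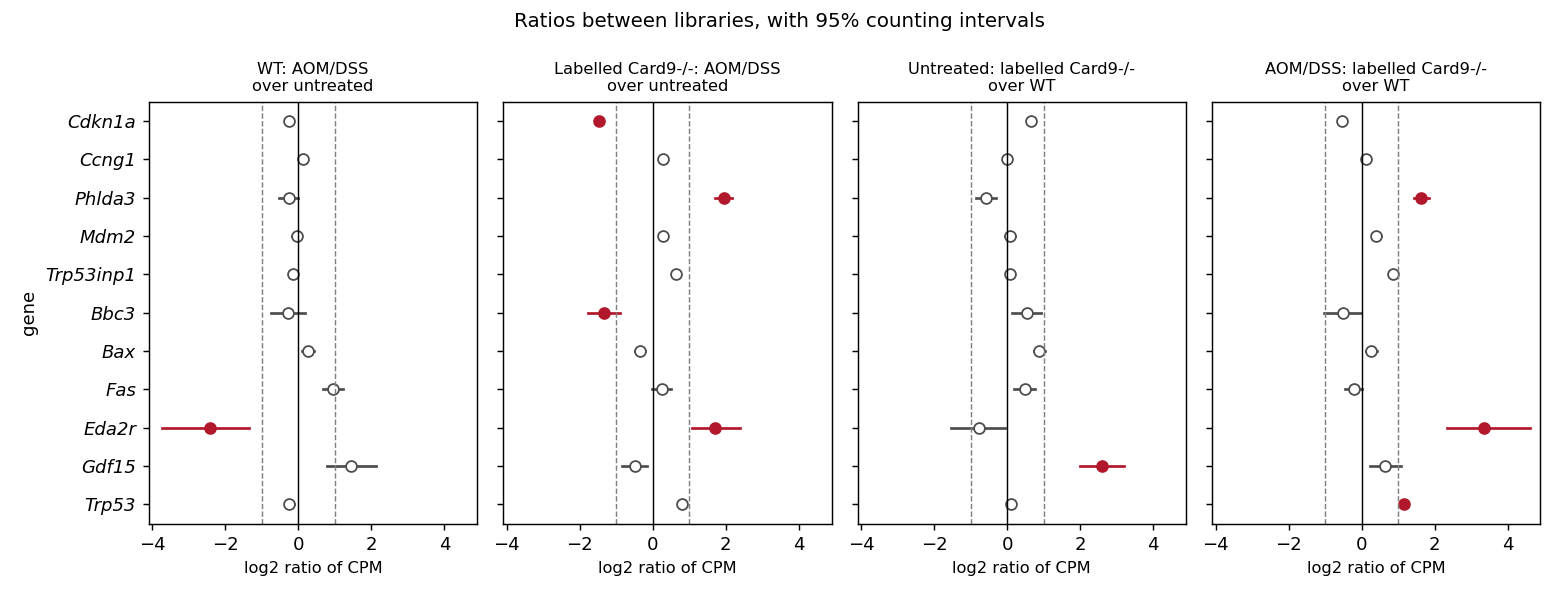
Log2 ratio of CPM of each gene in the 4 pairs of libraries, with 95% counting intervals; dashed lines mark 2-fold and filled points passed the size rule. Phlda3 and Eda2r lie to the right in both pairs that hold the AOM/DSS library labelled knockout, while Cdkn1a and Bbc3 lie to the left of 0 in both.

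Counted by whether the interval left out a ratio of 1, the WT AOM/DSS library had 4 of the 10 genes higher than untreated (Ccng1, Bax, Fas, Gdf15), 4 lower (Cdkn1a, Trp53inp1, Phlda3, Eda2r) and 2 not separated from it, where 34.3% of all 15356 genes were higher and 30.3% lower by the same rule. Under the label, AOM/DSS had 5 higher (Mdm2, Trp53inp1, Ccng1, Phlda3, Eda2r), 4 lower (Cdkn1a, Bbc3, Bax, Gdf15) and 1 not separated, against 42.7% and 41.3% of 15900 genes. With library totals these last counts were 6 higher and 2 lower. For 5 of the 10 genes both intervals left out 1 on opposite sides, as for 25.1% of 14873 genes. The difference of the 2 AOM/DSS log2 ratios, labelled knockout minus WT, was 2.27 for Eda2r and 2.07 for Phlda3, and -1.36 for Gdf15 and -1.20 for Cdkn1a. These 2 higher and 2 lower genes passed 2-fold, as did 14.2% and 16.3% of 16383 genes. The ratio of the AOM/DSS ratios was 17.7 for Eda2r (7.46 to 41.8), 4.62 for Phlda3 (3.67 to 5.81), 0.434 for Cdkn1a (0.405 to 0.465) and 0.261 for Gdf15 (0.160 to 0.426), with Wald intervals of the counts. Mdm2 (1.26, 1.11 to 1.42) and Ccng1 (1.09, 0.996 to 1.20) were the 2 genes with the nearest ratios to 1. Each ratio in this comparison rests on 1 library per group, and the median difference of the 10 genes was -0.24 against -0.03 over all genes.

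**Figure D3:**
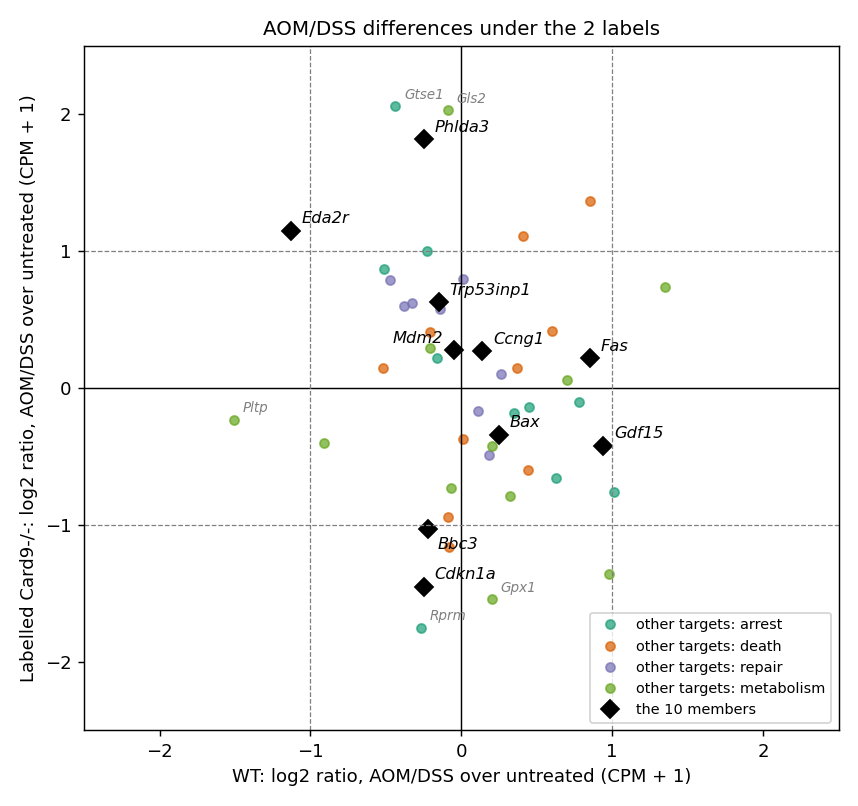
AOM/DSS over untreated as log2 ratios of CPM + 1, WT on the horizontal axis and the libraries labelled knockout on the vertical one, for the 10 target genes (diamonds) and 39 other p53 targets (circles); dashed lines mark 2-fold. Phlda3 and Eda2r sit at 1.82 and 1.15 on the vertical axis and Cdkn1a at -1.45, and target genes lie in every quadrant.

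Trp53 itself stood at 54.1 CPM in untreated WT, 58.0 in untreated labelled knockout, 45.5 in WT AOM/DSS and 102 in AOM/DSS labelled knockout. That last library was 2.23-fold above WT AOM/DSS (2.08 to 2.40) and 1.75-fold above its untreated counterpart (1.64 to 1.87), an order like that of Trp53inp1 and Mdm2. Its level is uncertain, since the processed pseudogene Trp53-ps matches it at 95% identity over 1170 bases, while none of the 10 target genes has such a copy. Trp53-ps had 104 to 281 counts of its own, beside 992 to 3217 counts of Trp53. An mRNA level does not measure p53 protein, which is governed by breakdown. Of a list of 14 genes, made of Trp53 itself, its regulators and its relatives, 12 were measured. Between the AOM/DSS libraries 3 of these, Trp53, Cdkn2a and Chek1, were past the size rule upward and 0 downward (median log2 ratio 0.47). Over all genes the shares in that pair were 11.9% and 12.4%. Cdkn2a, whose ARF product holds MDM2 away from p53, had 1 count in untreated WT, 0 in untreated labelled knockout, 2 in WT AOM/DSS and 312 in AOM/DSS labelled knockout. That is 107-fold above WT AOM/DSS (29.5 to 891), with a wide interval since WT AOM/DSS gave 2 counts. The locus also makes p16, and a count per gene does not divide the products. Chek1, a checkpoint kinase, was 3.94-fold higher between the AOM/DSS libraries (2.97 to 5.30), and cycling cell markers, with which it is known to go, were highest in the same library (943 CPM). Hipk2, a kinase that phosphorylates p53, was highest in untreated WT at 140 CPM against 73.7 to 84.5 elsewhere.

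Other known p53 targets, 39 genes in 4 groups, went both ways as the 10 did. By the size rule, 2 of the 39 were higher and 1 lower in WT (median log2 ratio 0.01), against 4.08% and 3.88% of all genes. Under the label 4 were higher and 4 lower (0.06), against 14.1% and 15.9%. In the untreated pair 5 were higher and 1 lower (0.07), against 4.46% and 3.37%. Between the AOM/DSS libraries 7 were higher and 3 lower (-0.07), against 11.9% and 12.4%. Among 10 arrest genes, Gtse1, a microtubule protein of dividing cells that restrains p53, was 4.55-fold higher after AOM/DSS under the label (3.89 to 5.34), at 38.5 CPM against 8.47 to 15.3 elsewhere, and Ckap2, a spindle protein, 2.59-fold higher between the AOM/DSS libraries. Rprm, an arrest protein, followed the order of Cdkn1a at 1.31, 4.28, 0.917 and 0.568 CPM and was 7.53-fold lower after AOM/DSS under the label (4.52 to 13.3). Plk3, a stress-responsive kinase, was 2.10-fold higher after AOM/DSS in WT (1.82 to 2.43) and 2.81-fold above WT in the untreated pair (2.46 to 3.23).

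Among 10 death genes, Pmaip1 (NOXA), a BH3-only protein like PUMA, stood at 10.2, 33.1, 16.0 and 44.6 CPM and was higher under the label in both pairs, 3.24-fold untreated (2.80 to 3.75) and 2.78-fold after AOM/DSS (2.47 to 3.13). Bbc3 differed from it after AOM/DSS, where its ratio was 0.698 (0.494 to 0.988), a difference that was not separated from 1 with DESeq2 size factors or library totals. Apaf1, the core of the apoptosome, was 2.63-fold higher after AOM/DSS under the label (2.43 to 2.84), Bid 2.22-fold higher (1.98 to 2.51), and Trp53i11 2.24-fold lower (2.15 to 2.34). Of the DNA repair genes, the polymerases Polh and Polk, which copy past damaged bases, had ratios of 2.06 and 1.80 between the AOM/DSS libraries. Fancc, of the Fanconi pathway, ranged from 9.71 to 17.3 CPM. Among 11 metabolic targets, Gls2, a glutaminase, was 9.66-fold higher after AOM/DSS under the label (5.39 to 19.1), at 5.33 CPM against 0.552 to 0.793 elsewhere. Gpx1, a glutathione peroxidase, had the order of Cdkn1a between the libraries labelled knockout, 2.93-fold lower after AOM/DSS (2.79 to 3.09). Pltp was 2.96-fold lower after AOM/DSS in WT (2.63 to 3.34), and Ak1 2.95-fold lower under the label than in WT after AOM/DSS (2.40 to 3.64).

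Proteins that p21, PUMA, BAX, Fas and Eda2r act on or with were read from a list of 18 partner genes, of which 16 were measured. In WT, 0 were past the size rule upward and 0 downward after AOM/DSS (median log2 ratio 0.04), against 4.08% and 3.88% of all genes. Under the label 5 were past it upward and 0 downward (0.64), against 14.1% and 15.9%. Ccne1, the cyclin of the kinase that p21 inhibits, was 4.94-fold higher under the label (4.12 to 5.97), at 30.2 CPM where Cdkn1a was at its lowest. Pcna, the replication clamp to which p21 also binds, was 2.04-fold higher (1.88 to 2.20). Cdk4 was at 216 CPM against 91.4 to 110.0 elsewhere, which fell short of the size rule under the label. Cycling cell markers were also highest in the AOM/DSS library labelled knockout (943 CPM), and their part in these levels was not tested. Bcl2l11 (BIM), a further BH3-only protein, was 3.42-fold higher (3.04 to 3.86), the opposite of Bbc3. Of 10 genes of the integrated stress response, which shares Gdf15 with p53, 5 were higher after AOM/DSS under the label and 1 lower. The shares of all genes in that pair were the same 14.1% and 15.9%, and the median log2 ratio of the 10 stress response genes was 1.11. Phgdh and Psat1, enzymes of serine synthesis, were 7.32-fold (6.26 to 8.61) and 6.84-fold higher (5.97 to 7.87), Chac1 7.74-fold (5.13 to 12.2) and Trib3 6.24-fold (3.88 to 10.6). Gdf15 did not go with these named genes, being lower in that pair, as was 1 gene of the list. Its lower level was lost with library totals, at a ratio of 0.870 (0.691 to 1.10).

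**Figure D4:**
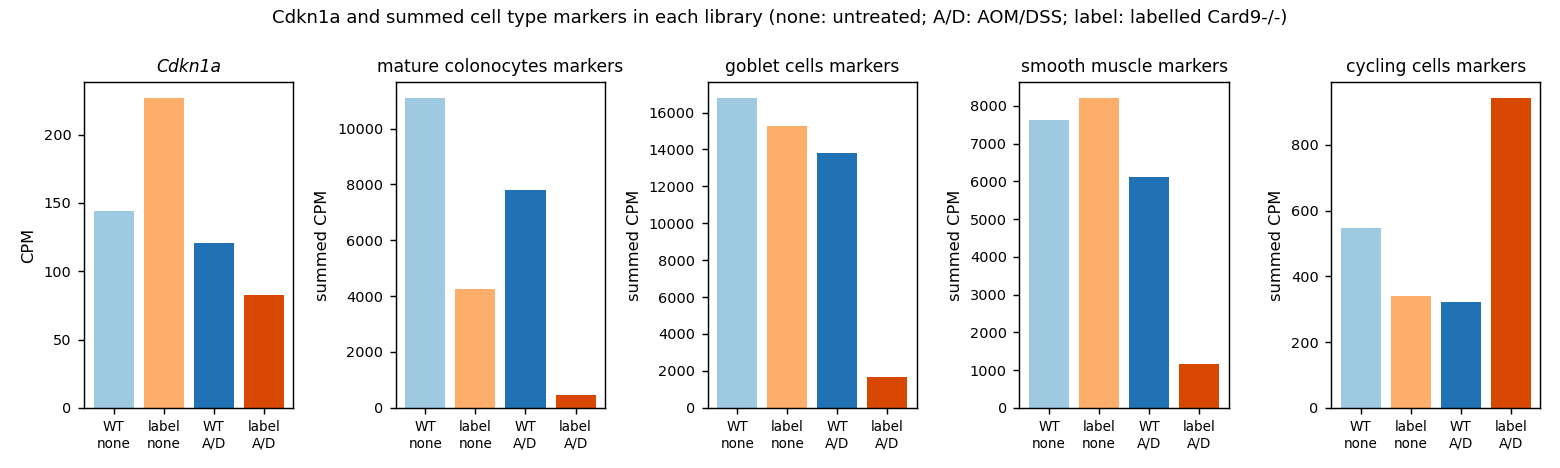
Cdkn1a (CPM) and the summed CPM of 4 marker lists in each library, 1 bar per library. In the AOM/DSS library labelled knockout Cdkn1a is lowest at 82.5 CPM, beside mature colonocyte, goblet and smooth muscle markers at 462, 1680 and 1160 CPM and cycling cell markers at 943 CPM.

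An additive model of genotype and treatment over all 4 libraries, was tested by quasi-likelihood in edgeR. Its 1 residual degree of freedom is the interaction. It called 0 of the 10 target genes for treatment and 0 for genotype at an adjusted p of 0.05 (Benjamini-Hochberg), as it called 0.0% of the 18973 genes for either term. Without adjustment, 0 of the 10 had p under 0.05 for either term, while 1148 genes did so for treatment and 746 for genotype. The lowest adjusted p among the 10 was 0.895 for treatment, that of Cdkn1a (log2 fold change -0.87), and 1 for genotype. DESeq2's Wald test on the same model called 336 and 255 genes, with 0 of the 10 among them, and gave Gdf15 an unadjusted p of 0.0434 for genotype (adjusted 0.776). Genes whose AOM/DSS ratios go opposite ways, such as Phlda3 and Eda2r, put that difference into the residual of this model.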

How the data were processed

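The deposited table holds raw read counts per gene symbol, whole numbers that the authors did not normalize, with 1 column per library and 0 columns of other samples. Of its 44788 gene symbols, 27 read as dates. Per the labels' protocols, RNA was extracted with TRIzol and sequenced on the Ion Proton, and the submitters' processing notes name the build GRCm38 (mm10). Neither aligner nor counter, annotation or strand setting was given in the sources used here. Unless strand was used, overlapping genes share reads: Bax overlaps the readthrough Gm45808, and Cdkn1a an antisense transcript. Gene positions and exon lengths are from GENCODE vM21.

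Libraries were grouped by the genotype and treatment labels. Counts were scaled to CPM with TMM (edgeR 4.0.16, R 4.3.3; factors 0.9915 for untreated WT, 0.9311 for untreated labelled knockout, 0.9473 and 1.143 for the AOM/DSS libraries). Fold changes are CPM ratios with exact 95% Clopper-Pearson intervals conditional on the summed counts, limited to counting error, as there were no molecular identifiers to tell molecules from copies. The size rule uses log2(CPM + 1), which understates low genes. The additive edgeR fit used filterByExpr and a robust fit, and its biological coefficient of variation was 0.444. Without replicates, that value comes from the interaction of genotype and treatment and does not measure the spread between mice. Near-identical copies were looked for among GENCODE transcripts (at least 300 bases at 90% identity).

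Named were all 10 target genes, Trp53, Card9 and, of each of 7 pathway lists, the 4 genes with the largest log2 ratio in any pair, of which 1 is not reported here. A list's counts cover members with at least 50 counts in a library. The target genes and lists were chosen with earlier results of these data known. Alternatives were DESeq2 (1.42.0) size factors, upper-quartile factors, library totals, pseudocounts of 0.5 and 5 CPM, a minimum of 200 counts or none, thinning, leaving out genes above 1% of a library, 1.5-fold and 3-fold rules, and other settings of the additive fit.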

Additional observations from a re-analysis of the deposited data

Results flagged for a closer look

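For 5 of the 10 target genes the AOM/DSS ratio lay on opposite sides of 1 in the 2 genotypes as labelled, with both counting intervals leaving out 1, as for 25.1% of 14873 genes that had 50 counts or more in each pair. Eda2r had a ratio of AOM/DSS over untreated of 0.185 in WT and 3.26 in the libraries labelled knockout. Phlda3 had 0.829 and 3.83, and Trp53inp1 0.9 and 1.56, in the same order. Gdf15 went the other way, at 2.71 and 0.709, as did Bax at 1.2 and 0.784. Each ratio rests on 1 library per group, so the difference was not tested. For Gdf15 and Bax the ratio under the label could not be told from 1 when libraries were scaled by their totals.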

How the results depend on the processing

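Over the alternatives, 91 counts of target genes stayed within 1.5 times of the reported value and 27 moved. The 91 include counts of 0 that stayed at 0. Of the log2 ratios of the target genes and Trp53, 288 stayed within the reach of their counting interval and 20 moved further. In all, 0 log2 ratios whose interval left out 1 changed sign. With DESeq2 size factors, or with library totals, 1 gene was lower after AOM/DSS under the label in place of 2, and with library totals 1 was lower in the difference of the responses in place of 2. A pseudocount of 0.5 CPM gave 1 gene higher in WT. A pseudocount of 5 CPM left 0 lower in WT, 1 higher and 1 lower under the label, 0 higher in the untreated pair, 1 higher in the AOM/DSS pair, and 1 higher and 1 lower in the difference of the responses, and a minimum of 200 counts gave these same numbers. Thinning left 0 lower in WT, since Eda2r then had fewer than 50 counts. The 1.5-fold rule gave 2 higher in WT, 3 higher in the untreated pair and 5 lower in the difference of the responses. The 3-fold rule gave 0 lower in WT, 1 higher and 0 lower under the label, 1 higher in the AOM/DSS pair and 0 lower in the difference. Where no cause is named, the cause was not tested.

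Scaling by library totals moved the median log2 ratio of all genes from 0.03 to 0.30 after AOM/DSS under the label and from 0.03 to 0.28 in the AOM/DSS pair. The 10 target genes then had medians of 0.52 and 0.59 in place of 0.24 and 0.33. Under that scaling Fas was higher after AOM/DSS under the label (1.45, 1.22 to 1.72), Bbc3 could not be told from 1 in the AOM/DSS pair (0.843, 0.596 to 1.19), Ccng1 could not in WT (1.05, 0.985 to 1.13) and was lower in the untreated pair (0.927, 0.865 to 0.994), and small ratios that the interval did not separate from 1 changed sign for Mdm2, Trp53inp1 and Fas. DESeq2 size factors also made Fas higher under the label (1.24, 1.04 to 1.47) and left Bbc3 unseparated in the AOM/DSS pair (0.724, 0.512 to 1.02), and upper-quartile factors made Fas lower there (0.825, 0.706 to 0.964) and left Ccng1 unseparated (1.04, 0.973 to 1.10). In the additive fit no alternative called a target gene; for all genes, dropping the expression filter called 81 for treatment and 62 for genotype, and DESeq2's Wald test 336 and 255, against 0 and 0. The lowest adjusted p of the target genes ran from 0.872 to 0.949 for treatment and from 0.776 to 1 for genotype. No paired analysis was possible because each group has 1 library. Depth limits Eda2r, Bbc3 and Gdf15, which had at most 155 counts in any library.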
